A study of Rattus norvegicus with 9 samples.

Results

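Collagen genes were taken as every gene of the deposited table whose symbol reads Col, a type number, the letter a and a chain number, which gave 42 of 21138 genes. The table holds hippocampal RNA of Sprague-Dawley rats in 3 groups of 3 libraries each, labelled wild type and collected at day 56. INS + VD rats underwent bilateral common carotid artery ligation, the operation used to model vascular dementia, and were then given insulin through the nose for 8 weeks, 1 U/kg each day. VD rats underwent the same ligation and received 0.9% saline at 0.5 mL per day, and CK rats received this saline without the operation. No saline is given for INS + VD rats, so in INS + VD vs. VD the insulin and a difference in saline cannot be told apart. The rats were male and aged 6 months, and samples of sham-operated rats were not analysed here, so in VD vs. CK the operation and the ligation cannot be told apart. The study used 3 biological replicates per group and froze 3 hippocampal tissues for sequencing, while the labels name no rat for a library, and a p-value here reflects how far the libraries of a group lay apart.

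Collagens are extracellular proteins whose alpha chains wind around each other into long helices. Fibrillar collagens build the fibres of the meninges and the outer coat of arteries, type IV collagens build the sheet-like basement membrane under endothelium and around pericytes and astrocyte endfeet, and the fibril-associated, short-chain and transmembrane collagens attach to or link these structures. In brain most of them are known as genes of fibroblasts, mural cells and endothelium, while Col25a1, a membrane-bound collagen, and Col19a1, which is known from hippocampal interneurons in the mouse, are expressed by neurons.

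Levels are FPKM, which count sequenced fragments relative to the length of the transcript and the depth of the library. Of the 42 collagen genes, 28 reached 0.5 FPKM in at least 3 of the 9 libraries and were tested, and the other 14 did not. The tested genes were 8 of 10 fibrillar, 5 of 6 type IV, 2 of 5 type VI, 7 of 9 fibril-associated, 1 of 2 multiplexin, 2 of 3 short-chain and 3 of 4 transmembrane collagens, and 0 of 3 others. Col1a2, a fibrillar chain, and Col6a3, a type VI chain, were not among the 42 genes, so the class counts and sums leave them out. Genes left untested were low in nearly every library, with means of 0.0153 to 0.652 FPKM, and the highest single value among them was 5.12 FPKM for Col28a1 in VD 3. The tested genes differed widely in level: Col1a1 averaged 10.3 FPKM over the 9 libraries, Col3a1 9.48, Col4a1 8.68 and Col4a2 7.23, whereas Col4a6 averaged 0.431 FPKM. Summed over all 42 genes, the collagens reached 110, 80.3 and 90.3 FPKM in INS + VD, 79.3, 68.5 and 186 FPKM in VD, against 93.7, 115 and 98.3 FPKM in CK. VD 3 lay above every other library and VD 2 below every other, so the VD group spanned the whole range.

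Several libraries carried genes of other brain regions, and these libraries enter the comparisons. The summed cerebellar markers stood at 3305 FPKM in CK 3 and at most 145 FPKM elsewhere, and the summed hindbrain markers at 151 FPKM in VD 2 and at most 7.32 FPKM elsewhere. The olfactory bulb markers summed to 434 FPKM in VD 1 and 1226 FPKM in VD 3, against at most 197 FPKM in the other libraries. Slc17a7, the vesicular glutamate transporter of hippocampal excitatory neurons, was at 0.766 FPKM in INS + VD 2 and 30.4 FPKM in VD 2, against 228 to 740 FPKM in the other libraries, so these libraries went against their tissue label. The choroid plexus markers, led by Ttr, summed to 1754 FPKM in INS + VD 1 and at most 26.2 FPKM elsewhere. In VD 1, 568 genes were listed at 0 although all 8 other libraries had more than 1 FPKM of them, and 5 of the 28 tested collagen genes were listed at 0 there (Col4a6, Col8a1, Col23a1, Col19a1 and Col25a1).

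**Figure D1:**
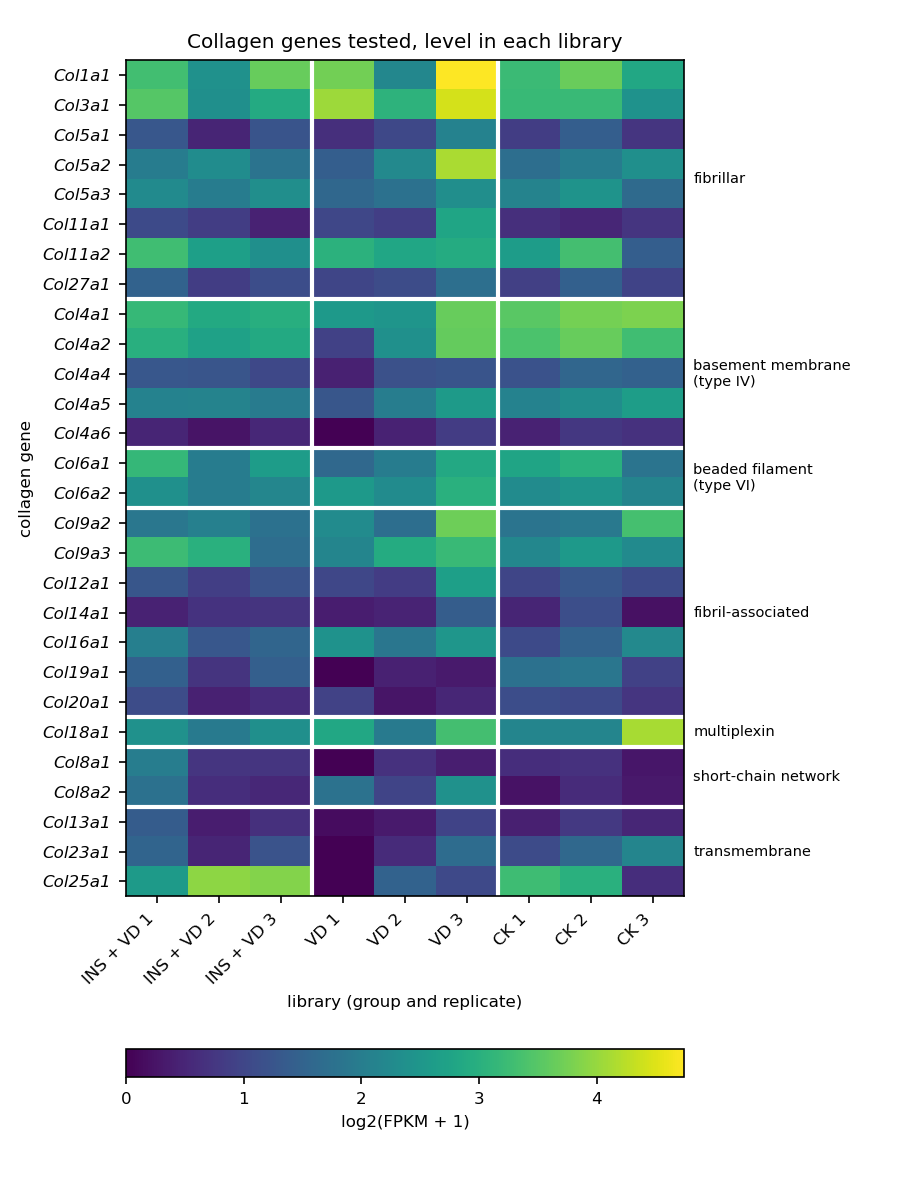
Level of the 28 tested collagen genes (rows, grouped by structural class) in the 9 libraries (columns), as log2(FPKM + 1) on the colour scale. VD 3 was the highest library for 13 of the 28 genes and VD 1 the lowest for 12.

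No collagen gene passed the adjusted p in any comparison. The limma model used log2(FPKM + 1), a scale that understates changes of genes near or below 1 FPKM, and the p-values were adjusted over the 15099 genes kept. Passing needed an adjusted p no higher than 0.05 and a log2 fold change of 1 or more in size, which held for 0 of the 28 collagen genes and 0 of all genes (0%) in INS + VD vs. VD, in VD vs. CK and in INS + VD vs. CK. The smallest limma adjusted p among collagen genes was 0.512 in INS + VD vs. VD, 0.23 in VD vs. CK and 1 in INS + VD vs. CK. Without VD 2, 28 of all genes passed in VD vs. CK and 20 in INS + VD vs. VD, with 0 collagen genes among them. With VD 3 as the only VD library (without CK 3, VD 1, VD 2 and INS + VD 2), Col5a2 and Col9a2 had log2 fold changes of 2.30 and 1.84 in VD vs. CK. In INS + VD vs. VD these were −2.25 and −1.88. That fit was added after the data had been seen and assumes VD 3 to vary like the other groups. VD 3 was already the highest library for both genes, and CK 3, left out there, had 9.15 FPKM of Col9a2. Genes passing in it are therefore not counted. With 3 libraries in each group the smallest p of an exact permutation test is 0.1, so the individual genes below are described by their values.

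At the unadjusted limma p with the same fold change, Col25a1 was the only collagen gene higher in INS + VD than in VD, against 3.64% of all genes, and none was lower, against 2.54%. In VD vs. CK, Col8a2 was the only one higher, against 3.89% of all genes, and Col19a1 the only one lower, against 4.89%. Col8a2 stayed below the 0.5 FPKM of the filter in every CK library and Col19a1 in every VD library, so each was tested only through the other groups. Without the fold change minimum, 2 of 28 collagen genes had an unadjusted p under the threshold in INS + VD vs. VD (Col19a1 and Col25a1), against 9.38% of all genes, and 3 of 28 in VD vs. CK (Col8a2, Col19a1 and Col4a1), against 12.7%. In INS + VD vs. CK the count was 0 of 28, against 1.82%, and with the fold change minimum it was 0 higher, against 0.636%, and 0 lower, against 0.305%. As shares of the 28 genes these counts were near the background or below it. The background itself depended on single libraries: without VD 3, the genes past the unadjusted p and the fold change minimum numbered 1570 in place of 549 higher in INS + VD vs. VD, of which 2 were collagen genes, and 1769 in place of 738 lower in VD vs. CK, of which 4 were. In INS + VD vs. VD, 12 of the 28 collagen genes had a log2 fold change above 0, against 53% of all genes, with a median of −0.12, against 0.04 for all genes. Of the 28, 14 lay above 0 in VD vs. CK, against 48.7%, and 14 below, against 51.3%, with a median of 0.02, against −0.02. A count of 13 lay above 0 in INS + VD vs. CK, against 49.7%, and 15 below, against 50.3%, with medians of −0.00 for both. The VD libraries are shared by the first and the second of these comparisons, so a high or low VD value enters them with opposite signs.

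**Figure D2:**
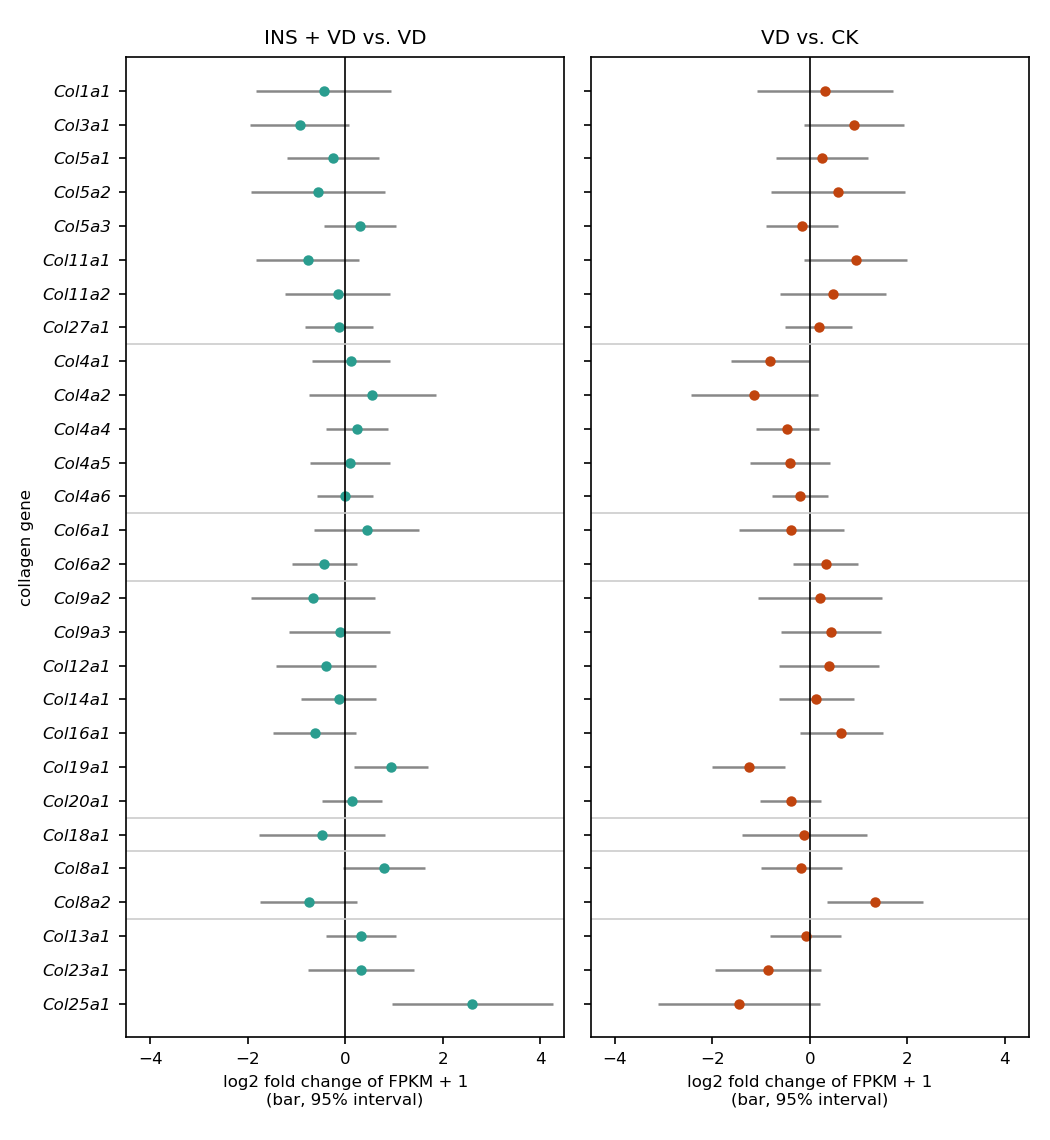
Log2 fold change of FPKM + 1 (points) with its 95% confidence interval from limma (bars) for the 28 tested collagen genes, grouped by class, in INS + VD vs. VD (left) and VD vs. CK (right). Col25a1 and Col19a1 lay above 0 with their intervals on the left, and on the right Col8a2 lay above 0 while Col19a1 and Col4a1 lay below it.

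Among the fibrillar collagens, Col1a1 and Col3a1 encode chains of the main fibres of connective tissue. Col3a1 had 10.2, 4.16 and 6.49 FPKM in INS + VD, 15.5, 7.40 and 20.6 FPKM in VD, against 8.21, 8.30 and 4.36 FPKM in CK. VD 1 and VD 3 lay above every other library, while VD 2 lay inside the range of both other groups. For Col3a1 the log2 fold change was −0.93 ± 0.45 (SE) in INS + VD vs. VD (limma adjusted p = 0.512) and 0.90 ± 0.45 in VD vs. CK (adjusted p = 0.417). Without VD 3 these were −0.64 and 0.61.

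Col1a1 had 8.96, 4.28 and 11.5 FPKM in INS + VD, 12.3, 3.59 and 25.8 FPKM in VD, against 8.44, 11.6 and 6.2 FPKM in CK. VD held both the highest and the lowest of the 9 libraries, and the log2 fold change in VD vs. CK was 0.31 ± 0.62 (SE, limma adjusted p = 0.817). Without VD 3 it was −0.28, and without VD 2 it was 0.99. The ratio of Col1a1 to Col3a1, both per length, was highest in INS + VD 3 at 1.77 and lowest in VD 2 at 0.485.

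Col11a2, a chain that nucleates thin fibrils, had 8.80, 5.42 and 4.11 FPKM in INS + VD, 7.32, 6.03 and 6.59 FPKM in VD, against 5.16, 9.02 and 1.68 FPKM in CK, and the groups overlapped. Its partner Col11a1 had 1.10, 0.819 and 0.377 FPKM in INS + VD, 1.02, 0.849 and 5.91 FPKM in VD, against 0.558, 0.417 and 0.657 FPKM in CK. For Col11a1 the VD libraries all exceeded the CK libraries, which held for 2 of the 28 collagen genes, Col11a1 and Col8a2, against 9.74% of all genes. In VD vs. CK its log2 fold change was 0.94 ± 0.47 (SE, limma adjusted p = 0.416), and 0.33 without VD 3.

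The direction counts of the fibrillar class depended on VD 3, although Col11a2 and Col5a3 were highest in CK 2. In VD vs. CK, 7 of 8 genes had a log2 fold change above 0 (median 0.39, range −0.17 to 0.94), against 48.7% of all genes, and without VD 3 this was 3 of 8 (median −0.11). Without CK 3 the median was 0.11. In INS + VD vs. VD, 7 of 8 lay below 0 (median −0.34, range −0.93 to 0.31), against 47% of all genes, and without VD 3 this was 3 of 8 (median 0.13). Without INS + VD 2 the median was −0.09. Col5a2, which encodes a chain that sets fibril diameter, had 2.96, 3.94 and 2.51 FPKM in INS + VD, 1.66, 3.70 and 16.8 FPKM in VD, against 2.27, 2.97 and 4.13 FPKM in CK. Its log2 fold change in VD vs. CK was 0.58 ± 0.61 (SE, limma adjusted p = 0.646), −0.20 without VD 3 and 1.17 without VD 1. Col5a1, Col5a3 and Col27a1 stayed between 0.403 and 4.40 FPKM in all libraries, with overlapping groups. Summed FPKM of the fibrillar genes were 39.2, 23.3 and 31.7 in INS + VD, 42.1, 26.5 and 86.1 in VD and 30.0, 40.3 and 21.0 in CK.

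**Figure D3:**
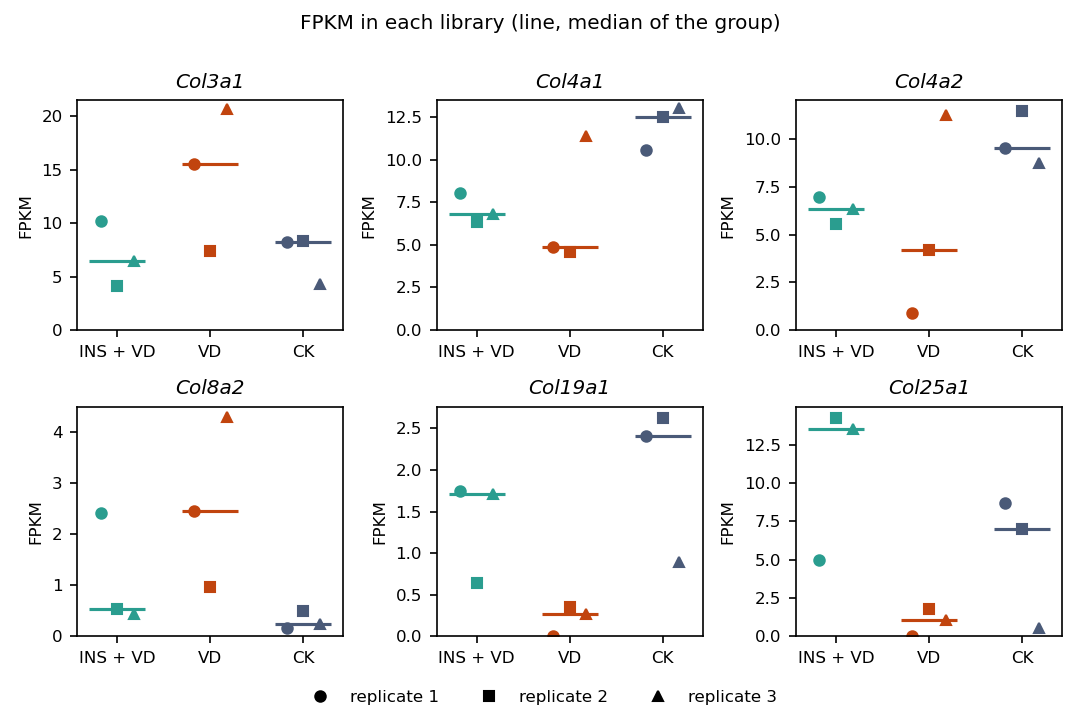
FPKM of 6 collagen genes in each library of INS + VD, VD and CK, with a symbol for each replicate number and a line at the median of the group. The 3 VD libraries spread over most of the axis for Col3a1, Col4a1, Col4a2 and Col8a2, and lay at the bottom for Col19a1 and Col25a1.

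Type IV collagens, the network formers of the vascular basement membrane, had a summed level below every CK library in all INS + VD libraries and in VD 1 and VD 2. Col4a1 and Col4a2, the chains found in nearly all basement membranes, lie head to head on chromosome 16, and their RefSeq start sites in the GRCr8 assembly are separated by 76 bases. The interval chr16:84885521-84885596 is shown because the levels of these chains are compared below, on the Col4a1 strand and with capitals for a GC box (GGGCGG or its complement CCGCCC, searched on both strands).
Col4a2-Col4a1 interval: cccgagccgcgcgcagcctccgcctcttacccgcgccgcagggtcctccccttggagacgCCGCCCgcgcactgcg
Of the interval, 78.9% of bases were G or C. Col4a3 and Col4a4 on chromosome 9 and Col4a5 and Col4a6 on chromosome X also lie head to head, with 412 and 1414 bases between their starts.

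Col4a1 had 8.02, 6.33 and 6.82 FPKM in INS + VD, 4.85, 4.56 and 11.4 FPKM in VD, against 10.6, 12.5 and 13.0 FPKM in CK. Every INS + VD library lay below every CK library, and VD 1 and VD 2 lay lower still while VD 3 lay within the CK range. Col4a1 had a log2 fold change of −0.70 ± 0.35 (SE) in INS + VD vs. CK (limma adjusted p = 1) and −0.81 ± 0.35 in VD vs. CK (adjusted p = 0.386).

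Col4a2 had 6.97, 5.57 and 6.34 FPKM in INS + VD, 0.882, 4.19 and 11.3 FPKM in VD, against 9.57, 11.5 and 8.79 FPKM in CK. Again every INS + VD library lay below every CK library, and Col4a1 and Col4a2 were the 2 of 28 collagen genes for which this held, against 5.27% of all genes. Its log2 fold change was −0.58 ± 0.58 (SE) in INS + VD vs. CK (limma adjusted p = 1) and −1.14 ± 0.58 in VD vs. CK (adjusted p = 0.418). In VD vs. CK it was −0.45 without VD 1 and −1.80 without VD 3. In INS + VD vs. VD it was 0.56 ± 0.58 (adjusted p = 0.676), −0.13 without VD 1 and 1.22 without VD 3.

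The pair stayed near equal levels across most libraries. Per length, the ratio of Col4a1 to Col4a2 was 1.15, 1.14 and 1.08 in INS + VD, 5.5, 1.09 and 1.01 in VD and 1.10, 1.09 and 1.48 in CK. VD 1, the library with many genes listed at 0, was the exception at 5.5, and in the other 8 the ratio lay between 1.01 and 1.48 while Col4a1 itself ranged 2.86-fold over the 9 libraries.

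Col4a5, a chain of a second type IV network, had 3.27, 3.35 and 2.92 FPKM in INS + VD, 1.40, 3.02 and 5.02 FPKM in VD, against 3.31, 4.04 and 5.22 FPKM in CK, with overlapping groups. Col4a4 stood between 0.354 and 1.97 FPKM, with a log2 fold change of −0.46 ± 0.28 in VD vs. CK (SE, limma adjusted p = 0.473) and −0.20 without VD 1, and Col4a6 was at most 0.793 FPKM. All 5 tested type IV genes had log2 fold changes below 0 in VD vs. CK (median −0.46, range −1.14 to −0.20), against 51.3% of all genes. Without VD 1 it was 4 of 5 (median −0.20), and without VD 3 the median was −0.73. In INS + VD vs. CK all 5 lay below 0 as well (median −0.30, range −0.70 to −0.21), against 50.3% of all genes. All 5 stayed below 0 without any single library and under either rescaling of the libraries, with a median of −0.19 without CK 3. In INS + VD vs. VD, 4 of 5 lay above 0 (median 0.12), against 53% of all genes. This was 0 of 5 without VD 1 (median −0.13) and 2 of 5 after centring each library on its median (−0.04), and without VD 3 the median was 0.43. Summed type IV FPKM were 20.6, 17.2 and 17.8 in INS + VD, 7.49, 13.7 and 30.0 in VD and 25.7, 31.6 and 29.9 in CK.

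Type VI collagen forms beaded filaments around vessels and fibroblasts. Col6a1 had 7.97, 3.0 and 5.16 FPKM in INS + VD, 2.04, 2.96 and 6.31 FPKM in VD, against 5.81, 7.08 and 2.53 FPKM in CK. Col6a2 had 4.23, 2.99 and 3.55 FPKM in INS + VD, 4.84, 3.92 and 7.05 FPKM in VD, against 3.88, 4.45 and 3.40 FPKM in CK. Groups overlapped for both genes, and their log2 fold changes in VD vs. CK lay between −0.38 and 0.33. The ratio of Col6a1 to Col6a2 was 1.88, 1.0 and 1.45 in INS + VD, 0.421, 0.755 and 0.895 in VD and 1.5, 1.59 and 0.745 in CK, so Col6a1 was below Col6a2 in every VD library and in CK 3. The 3 other type VI genes, Col6a4, Col6a5 and Col6a6, did not exceed 0.109 FPKM.

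The fibril-associated collagens held the gene with the smallest p of the set. Col19a1 is a minor collagen of basement membrane zones that is known from hippocampal interneurons in the mouse. It had 1.75, 0.645 and 1.71 FPKM in INS + VD, 0.358 and 0.271 FPKM in VD 2 and VD 3 and 2.41, 2.63 and 0.899 FPKM in CK, and it was listed at 0 in VD 1. All VD libraries lay below all libraries of both other groups. They also lay below the 0.5 FPKM of the filter, so Col19a1 was tested only through INS + VD and CK, and its being tested adds no support. Col19a1 was the only collagen gene with every VD library below every CK library, against 8.27% of all genes. INS + VD libraries all exceeded VD libraries for 3 of the 28 collagen genes, Col19a1, Col25a1 and Col8a1, against 7.57% of all genes, and all lay below them for 0, against 7.6%.

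The log2 fold change of Col19a1 was 0.94 ± 0.33 (SE) in INS + VD vs. VD (limma adjusted p = 0.512) and −1.26 ± 0.33 in VD vs. CK (adjusted p = 0.23). With 0.1 FPKM added in place of 1 FPKM before taking logs, these values were 2.40 and −2.88. Leaving out any single library gave 0.81 to 1.19 in INS + VD vs. VD and −1.55 to −1.09 in VD vs. CK. The summed markers of GABAergic interneurons were 628, 598 and 711 FPKM in INS + VD, 2508, 343 and 1017 FPKM in VD, against 1005, 958 and 1251 FPKM in CK. They were highest in VD 1, where Col19a1 was listed at 0. VD 1 also had 434 FPKM of olfactory bulb markers, and 568 genes were listed at 0 there although all 8 other libraries had more than 1 FPKM of them. Summed markers of hippocampal excitatory neurons were 1968, 209 and 2130 FPKM in INS + VD, 591, 161 and 820 FPKM in VD, against 2081, 2076 and 1164 FPKM in CK. INS + VD 2 and CK 3, the lowest libraries for Col19a1 in their groups, were also the lowest in their groups for these excitatory markers, whereas VD 2, the lowest VD library for these markers, was the highest VD library for Col19a1. The part of either cell type in the Col19a1 values was not tested, and in whole tissue fewer cells of a type and less RNA per cell cannot be told apart.

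The 250 bases before the RefSeq start of Col19a1 (GRCr8, chr9:34518258-34518507, minus strand) and those of Col8a2 (chr5:143870519-143870768, plus strand) are shown because these genes had the smallest p-values of the set in VD vs. CK, in opposite directions. Capitals mark each GC box on either strand.
Col19a1: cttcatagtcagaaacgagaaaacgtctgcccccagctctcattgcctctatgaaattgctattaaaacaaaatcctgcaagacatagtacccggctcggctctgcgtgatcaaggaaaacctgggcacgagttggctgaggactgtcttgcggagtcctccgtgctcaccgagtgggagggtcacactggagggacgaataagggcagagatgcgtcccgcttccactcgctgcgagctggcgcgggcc
Col8a2: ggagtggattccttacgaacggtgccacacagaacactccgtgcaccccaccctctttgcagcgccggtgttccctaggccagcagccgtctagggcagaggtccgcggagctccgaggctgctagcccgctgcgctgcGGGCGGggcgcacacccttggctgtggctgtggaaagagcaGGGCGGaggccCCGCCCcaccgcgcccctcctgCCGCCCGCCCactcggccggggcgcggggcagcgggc
Col8a2 had 5 GC boxes, the last 2 of them overlapping, and Col19a1 had none. A promoter was found in the RefSeq table for 33 of the 42 collagen genes, 21 of them tested, and none for Col25a1. A GC box lay in the 250 bases before the start of 19 of the 33 (57.6%), against 32.4% of 27457 promoters in the table. CCAAT, searched on both strands, was present in 10 (30.3%), against 34.3%, and TATAAA in 3 (9.09%), against 13.1%. A match is a stretch of letters and not a measured binding site.

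Col9a3 and Col9a2 encode chains of type IX collagen, which coats thin fibrils. Col9a3 had 8.51, 7.02 and 2.23 FPKM in INS + VD, 3.47, 6.55 and 8.27 FPKM in VD, against 3.57, 4.82 and 3.79 FPKM in CK. Col9a2 had 2.67, 3.20 and 2.40 FPKM in INS + VD, 3.87, 2.30 and 12 FPKM in VD, against 2.52, 2.77 and 9.15 FPKM in CK. Groups overlapped for both, with Col9a2 high in a single library each of VD and CK. Col9a3 was highest in INS + VD 1, the library with choroid plexus genes, and VD 3 stood close to it. Any part of choroid plexus in these values was not tested.

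Col16a1, a fibril-associated chain of the perivascular and pial matrix, had 3.16, 1.44 and 1.91 FPKM in INS + VD, 4.32, 2.63 and 4.64 FPKM in VD, against 1.10, 1.84 and 3.71 FPKM in CK. The VD libraries lay in the upper part of the range, but CK 3 and INS + VD 1 lay among them. Its log2 fold change in VD vs. CK was 0.65 ± 0.38 (SE, limma adjusted p = 0.457), 0.38 without CK 1 and 0.97 without CK 3. Col12a1, Col14a1 and Col20a1 stood between 0.163 and 5.43 FPKM with overlapping groups, and Col12a1 and Col14a1 were highest in VD 3.

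Col18a1, a heparan sulphate collagen of basement membranes whose end fragment is endostatin, had 4.28, 2.84 and 4.11 FPKM in INS + VD, 6.21, 2.82 and 9.02 FPKM in VD, against 3.49, 3.48 and 16.3 FPKM in CK. Its highest library was CK 3, which carried the cerebellar genes, and the groups overlapped. Any part of cerebellar tissue in this value was not tested. The other multiplexin, Col15a1, averaged 0.112 FPKM.

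The short-chain network collagens are known from endothelium of large vessels, smooth muscle and Descemet's membrane of the eye. Col8a2 had 2.42, 0.534 and 0.433 FPKM in INS + VD, 2.46, 0.961 and 4.29 FPKM in VD, against 0.172, 0.490 and 0.252 FPKM in CK. All VD libraries lay above all CK libraries, and INS + VD 1 reached the level of VD 1 while INS + VD 2 and 3 lay near the top of the CK range. Every CK library lay below the 0.5 FPKM of the filter, so Col8a2 was tested only through VD and INS + VD, and its being tested adds no support. Col8a2 had a log2 fold change of 1.35 ± 0.44 (SE) in VD vs. CK (limma adjusted p = 0.303) and −0.75 ± 0.44 in INS + VD vs. VD (adjusted p = 0.525). With 0.1 FPKM added before taking logs, it was 2.57 in VD vs. CK, and leaving out any single library gave 1.01 to 1.72. With weights per library it was 1.09, and the unadjusted p no longer passed. The value in INS + VD vs. VD was −1.15 without INS + VD 1, −0.41 without VD 3, −1.27 with 0.1 FPKM added and −0.25 with weights per library.

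Its partner Col8a1 had 3.03, 0.656 and 0.655 FPKM in INS + VD, 0.599 and 0.318 FPKM in VD 2 and VD 3 and 0.539, 0.607 and 0.216 FPKM in CK, and was listed at 0 in VD 1. All INS + VD libraries lay above all others, and Col8a1 was the only collagen gene with INS + VD above CK throughout, against 5.85% of all genes. INS + VD 2 and 3 exceeded the highest CK library by less than 0.1 FPKM, and INS + VD 1, the library with choroid plexus genes, stood far above them. Any part of choroid plexus in this value was not tested. The log2 fold change was 0.80 ± 0.37 (SE) in INS + VD vs. VD (limma adjusted p = 0.512) and 0.63 ± 0.37 in INS + VD vs. CK (adjusted p = 1), and without INS + VD 1 these were 0.37 and 0.20.

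Col25a1, the transmembrane collagen of neurons whose shed part is found in amyloid plaques, showed the widest contrast of the set. It had 5.0, 14.3 and 13.5 FPKM in INS + VD, 1.80 and 1.07 FPKM in VD 2 and VD 3 and 8.68, 7.03 and 0.530 FPKM in CK, and was listed at 0 in VD 1. Every INS + VD library lay above every VD library, and CK overlapped both, since CK 3 stood at the VD level. The log2 fold change was 2.61 ± 0.73 (SE) in INS + VD vs. VD (limma adjusted p = 0.512), −1.45 ± 0.73 in VD vs. CK (adjusted p = 0.418) and 1.16 ± 0.73 in INS + VD vs. CK (adjusted p = 1). Col25a1 with 0.1 FPKM added before taking logs had 4.04 in INS + VD vs. VD and −2.49 in VD vs. CK, and with weights per library it had 0.097 in INS + VD vs. CK.

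Leaving out any single library gave Col25a1 log2 fold changes of 2.19 to 3.05 in INS + VD vs. VD, −2.29 to −0.96 in VD vs. CK and 0.32 to 1.65 in INS + VD vs. CK, the lowest of the last range being without CK 3. Without CK 3, VD 2 and INS + VD 2 together, the libraries with cerebellar or hindbrain genes or with the least Slc17a7, the values were 2.70, −2.61 and 0.08. The VD libraries that remain there, VD 1 and VD 3, had 434 and 1226 FPKM of olfactory bulb markers, and Col25a1 was listed at 0 in VD 1. INS + VD 1, with 1754 FPKM of choroid plexus markers, also remains. Col25a1 was highest in INS + VD 2, where the excitatory markers summed to 209 FPKM. Among the other 8 libraries it stood at 5.0 to 13.5 FPKM in INS + VD 1, INS + VD 3, CK 1 and CK 2, which had 1968 to 2130 FPKM of these markers, and at 1.80 FPKM or less in VD 1, VD 2, VD 3 and CK 3, which had 161 to 1164 FPKM. The part of excitatory neurons in the Col25a1 values was not tested. As Col19a1 and Col25a1 are known from neurons, the genes are called here by their names and not as genes of meninges and vessel walls.

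Col23a1, another transmembrane collagen, had 1.88, 0.411 and 1.33 FPKM in INS + VD, 0.507 and 2.20 FPKM in VD 2 and VD 3 and 1.11, 2.05 and 3.48 FPKM in CK, and was listed at 0 in VD 1. Groups overlapped, and the log2 fold change in VD vs. CK was −0.86 ± 0.48 (SE, limma adjusted p = 0.447), −0.48 without VD 1, where the gene was listed at 0, and −1.32 without VD 3. Col13a1, known from neuromuscular junctions, was at most 1.60 FPKM, with overlapping groups.

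Markers of the cells that make most collagens differed between the same libraries. The marker lists were chosen with earlier results of these data known. Of 24 listed markers of meningeal fibroblasts 23 were tested. They summed to 361, 226 and 312 FPKM in INS + VD, 891, 337 and 562 FPKM in VD, against 308, 286 and 120 FPKM in CK. A log2 fold change below 0 in INS + VD vs. VD was found for 20 of the 23 (median −0.93), against 47% of all genes. In VD vs. CK 20 lay above 0 (median 0.99), against 48.7%. At most 3 of the 24 were listed at 0 in any library, in CK 3 (Slc47a1, Cdh1 and Dapl1). The 18 mural cell markers, none listed at 0, summed to 230, 249 and 165 FPKM in INS + VD, 354, 381 and 229 FPKM in VD, against 166, 214 and 193 FPKM in CK, with a median of −0.58 in INS + VD vs. VD and 0.61 in VD vs. CK. The endothelial markers summed to 135 to 207 FPKM in INS + VD, 150 to 275 FPKM in VD and 148 to 206 FPKM in CK, with medians of −0.14 and 0.03 over 15 tested markers, and among the 16 in the table only Esm1 was listed at 0 anywhere. Over the other lists, the median log2 fold change in INS + VD vs. VD and in VD vs. CK was −0.34 and 0.98 for microglia and macrophages, −0.26 and 0.46 for astrocytes, 0.45 and −0.32 for the oligodendrocyte lineage, 0.59 and −0.67 for neurons, 0.61 and −2.08 for hippocampal excitatory neurons and −0.01 and 0.20 for GABAergic interneurons. It was −2.49 and 2.94 for the olfactory bulb, with 10 of 10 tested markers above 0 in VD vs. CK, against 48.7% of all genes. For cerebellum the median was 0.02 and −2.06 and for choroid plexus 1.04 and 0.92, and 1 hindbrain marker was tested. VD 1 had the highest sum of meningeal markers, of which Igfbp2 and Crym gave 340 and 311 FPKM. The mean of log2(FPKM + 1) over the 23 tested markers was highest in VD 3, at 3.86 against 3.48 in VD 1, and VD 3 also had the highest sum of fibrillar collagens. This mean was highest in VD 3 for microglia and macrophages (3.63) and olfactory bulb (6.31) as well. For mural cell markers it was highest in VD 2 (3.55), the library with the lowest collagen sum. The part of these cells in the collagen values was not tested.

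**Figure D4:**
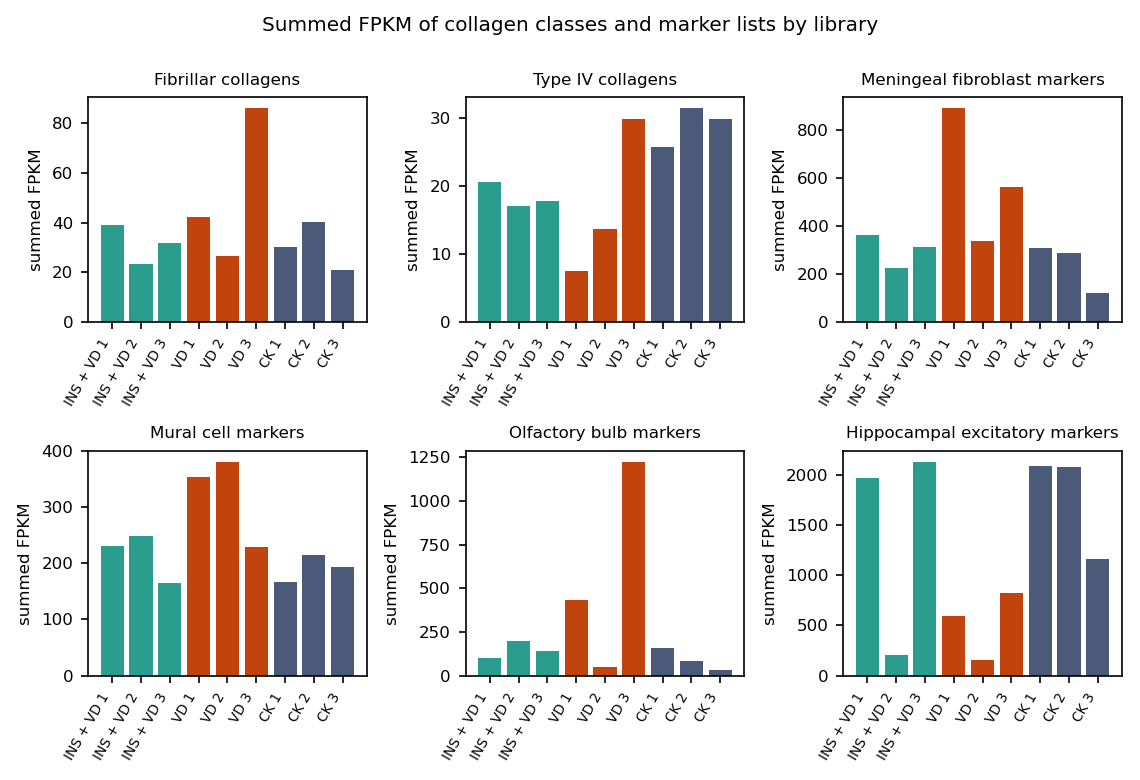
Summed FPKM in each library (bars, INS + VD, VD and CK from left to right) of the fibrillar and type IV collagens and of the markers of meningeal fibroblasts, mural cells, olfactory bulb and hippocampal excitatory neurons. Fibrillar collagens peaked in VD 3 at 86.1, meningeal markers in VD 1 at 891, and the olfactory bulb markers in VD 3 at 1226.

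The genes that make, bind and degrade collagen were followed as 6 lists, and 0 of their genes passed the adjusted p in limma. These lists were chosen with earlier results of these data known. Among 30 tested genes of collagen synthesis and crosslinking, 16 had a log2 fold change above 0 in INS + VD vs. VD (median 0.04), against 53% of all genes. In VD vs. CK 17 did (median 0.12), against 48.7%. Fkbp10, a chaperone of procollagen, had 2.93, 4.10 and 3.84 FPKM in INS + VD, 7.47, 4.94 and 6.25 FPKM in VD, against 2.20, 2.15 and 3.26 FPKM in CK, with all VD libraries above the rest and a log2 fold change of 1.03 in VD vs. CK (limma adjusted p = 0.245). P4ha1, a subunit of the prolyl hydroxylase that stabilises the helix, had 31.3, 52.9 and 33.5 FPKM in INS + VD, 8.67, 23.6 and 22.8 FPKM in VD, against 18.2, 19.8 and 12.9 FPKM in CK, with all INS + VD libraries above the rest and a log2 fold change of 1.13 in INS + VD vs. VD (limma adjusted p = 0.512), or 0.69 without VD 1. P4ha3, its low-level relative, had 2.88, 0.560 and 2.26 FPKM in INS + VD, 0.632 and 1.66 FPKM in VD 2 and VD 3 and 4.62, 3.0 and 2.79 FPKM in CK, was listed at 0 in VD 1, and had a log2 fold change of −1.43 in VD vs. CK (adjusted p = 0.296). For P4ha3 all VD libraries lay below all CK libraries, and INS + VD spanned both.

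In collagen turnover, 5 of 11 tested genes had a log2 fold change above 0 in INS + VD vs. VD (median −0.13), against 53% of all genes. In VD vs. CK this was 9 of 11 (median 0.41), against 48.7%. Timp1, an inhibitor of matrix metalloproteinases, had 3.12, 3.99 and 4.07 FPKM in INS + VD, 24.8, 7.39 and 11.2 FPKM in VD, against 1.65, 2.78 and 1.98 FPKM in CK. The 3 groups did not overlap, with VD highest and CK lowest, and the log2 fold change was −1.56 in INS + VD vs. VD (limma adjusted p = 0.512) and 2.16 in VD vs. CK (adjusted p = 0.196). Mmp16, a membrane-bound metalloproteinase, had 7.02, 5.98 and 7.88 FPKM in INS + VD, 1.25, 3.48 and 5.0 FPKM in VD, against 9.12, 7.59 and 6.79 FPKM in CK. VD was lowest throughout, with a log2 fold change of 1.01 in INS + VD vs. VD (adjusted p = 0.512) and −1.16 in VD vs. CK (adjusted p = 0.306), or 0.61 and −0.76 without VD 1.

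Fibril-binding proteoglycans and matricellular proteins coat and space collagen fibres. Of 14 tested, 12 had a log2 fold change below 0 in INS + VD vs. VD (median −0.43), against 47% of all genes. In VD vs. CK 10 lay above 0 (median 0.83), against 48.7%. Dcn, which encodes decorin, had 8.42, 13.2 and 7.10 FPKM in INS + VD, 28.6, 15.3 and 25.0 FPKM in VD, against 7.76, 9.18 and 4.0 FPKM in CK. All VD libraries lay above all others, with a log2 fold change of −1.18 in INS + VD vs. VD (limma adjusted p = 0.512) and 1.61 in VD vs. CK (adjusted p = 0.205). Lumican, encoded by Lum, had 2.80, 4.26 and 3.07 FPKM in INS + VD, 6.06, 4.33 and 4.04 FPKM in VD, against 2.46, 2.33 and 2.04 FPKM in CK. VD and INS + VD libraries all lay above CK, with a log2 fold change of 0.81 in VD vs. CK (limma adjusted p = 0.321). The smallest p-values of the list were those of Spp1 and Mfap5. Their log2 fold changes were 5.52 and 0.85 in VD vs. CK (limma adjusted p = 0.2 and 0.202). In INS + VD vs. VD they were −4.02 and −0.69 (limma adjusted p = 0.512 for each). Dcn and Lum are also known as genes of fibroblasts, whose markers differed between the same libraries, and the part of these cells was not tested.

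The remaining lists had medians near 0. Of 8 tested collagen receptors, 4 had a log2 fold change above 0 in INS + VD vs. VD (median −0.02), against 53% of all genes. In VD vs. CK 4 did (median 0.07), against 48.7%. Among 13 partners of type IV collagen in the basement membrane, such as laminins and nidogens, 5 lay above 0 in INS + VD vs. VD (median −0.12), against 53% of all genes. In VD vs. CK 9 of the 13 did (median 0.14), against 48.7%, whereas all 5 type IV genes lay below 0 there, against 51.3%. In the list of TGF-beta ligands, receptors and targets, a pathway that drives collagen transcription in fibroblasts, 9 of 18 lay above 0 in INS + VD vs. VD (median 0.03), against 53% of all genes. In VD vs. CK 10 of 18 did (median 0.09), against 48.7%. Tgfb1 had 6.65, 5.39 and 6.52 FPKM in INS + VD, 22.4, 7.40 and 15.6 FPKM in VD, against 6.39, 7.40 and 4.19 FPKM in CK. VD 1 and VD 3 stood far above all other libraries and VD 2 exceeded the highest CK library by less than 0.1 FPKM, with a log2 fold change of −1.05 in INS + VD vs. VD (limma adjusted p = 0.512) and 1.11 in VD vs. CK (adjusted p = 0.343). Tgfbi, a TGF-beta target that encodes a collagen-binding matrix protein, had 3.48, 2.09 and 2.06 FPKM in INS + VD, 3.01, 6.10 and 4.30 FPKM in VD, against 0.833, 0.920 and 1.30 FPKM in CK. All VD libraries lay above all CK libraries and INS + VD lay between or among them, with a log2 fold change of 1.41 in VD vs. CK (limma adjusted p = 0.2).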

How the data were processed

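RNA of 9 hippocampal samples was sequenced in the study, and the deposited table lists FPKM per gene and library, which the authors calculated from reads aligned with HISAT2. The counting program was not given in the sources used here. The submitters' processing notes name GRCm38/mm10, a mouse build, while the gene identifiers belong to rat, so positions of the table were not used. The labels and the paper name different RNA extraction and library kits. FPKM without counts leave the depth unknown, so no counting interval is given.

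Groups followed the sample titles. A gene was kept when 3 or more libraries reached 0.5 FPKM, and log2(FPKM + 1) was fitted with limma 3.58.1 in R 4.3.3 over all 9 libraries with group as the term and a trended prior. P-values were adjusted by Benjamini and Hochberg over all genes kept. Tables and figures were made with pandas 2.3.3 and matplotlib 3.10.9 in Python 3.11.15. The procedure was tested on simulated data.

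Values in every library are given for genes past the unadjusted p of 0.05 whose log2 fold change was 1 or more in size, for up to 3 genes per class with the highest mean, if this reached 1 FPKM, and for genes with 1 group above or below both others. Other genes of the 6 matrix lists are named among up to 4 with the smallest p. Values of Col5a2 and Col11a1 were added after they had been seen. The members and the 19 lists, 13 of them markers, were chosen with earlier results of these data known. Promoters were taken from RefSeq (GRCr8). Alternatives changed the pseudocount, filter, scaling, prior, weights, fold change minimum, libraries and replicate block.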

Additional observations from a re-analysis of the deposited data

How the results depend on the processing

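Without CK 3, VD 1, VD 2 and INS + VD 2, which leaves 1 VD library that is assumed to vary like the other groups, 2 collagen genes passed the adjusted p: Col5a2 (limma −2.25, adjusted p = 0.046 in INS + VD vs. VD, 2.30 and 0.0353 in VD vs. CK) and Col9a2 (−1.88 and 0.0477, 1.84 and 0.038). This test was added after the data had been seen, and no other setting run made a collagen gene pass. At the unadjusted p it had 2 higher and 6 lower in INS + VD vs. VD, and 9 higher and 2 lower in VD vs. CK. Its median over the collagen genes was −0.62 in INS + VD vs. VD and 0.47 in VD vs. CK, and it turned the sign of Col4a2 (−0.68 in INS + VD vs. VD, 0.093 in VD vs. CK) and of Col23a1 (0.33 in VD vs. CK). Genes past the unadjusted p and the fold change minimum numbered 2 higher in INS + VD vs. VD with 0.1 FPKM added before logs, with equal sums per library, without the fold change minimum and without CK 3, VD 2 and INS + VD 2 together, and 1 lower with median centring and without those 3 libraries. In VD vs. CK they numbered 3 higher with median centring and without those 3 libraries, and 2 lower with equal sums, array weights, no fold change minimum and without those 3 libraries. Array weights gave Col1a1 −0.28 in VD vs. CK. Leaving out a single library gave 1 to 3 higher, 0 to 2 lower and a median of −0.25 to 0.19 in INS + VD vs. VD, 1 to 3 higher, 1 to 4 lower and a median of −0.30 to 0.27 in VD vs. CK, and 0 and a median of −0.20 to 0.14 in INS + VD vs. CK. It moved Col4a2 over −0.13 to 1.22 in INS + VD vs. VD, and Col1a1 over −0.28 to 0.99 and Col5a2 over −0.20 to 1.17 in VD vs. CK. Over all genes these counts ran from 226 (without VD 1) to 1570 (without VD 3) higher and 141 (without INS + VD 3) to 973 (without VD 2) lower in INS + VD vs. VD, 464 (without CK 1) to 1011 (without VD 2) higher and 367 (without VD 1) to 1769 (without VD 3) lower in VD vs. CK, and 57 to 179 higher and 33 to 86 lower in INS + VD vs. CK. Genes of the whole table past the limma adjusted p and the fold change minimum, 0 in each comparison with all libraries, numbered 28 in VD vs. CK and 20 in INS + VD vs. VD without VD 2, 2 in each without CK 3, VD 2 and INS + VD 2, and 8 in INS + VD vs. CK with array weights. Among the named genes 311 of the values without a single library kept their direction and side of the threshold, 37 crossed it and 3 turned sign. These include fits without a library of the group outside the comparison. There the fold change stays the same by construction and cannot turn sign, so the counts overstate stability. Equal sums moved the median of all genes to 0.22 in INS + VD vs. VD and −0.19 in VD vs. CK, and median centring to −0.12 and 0.16. Collagen genes above 0 numbered 12 of 28 in INS + VD vs. VD and 14 in VD vs. CK, 15 and 14 with equal sums, and 9 and 18 with median centring. All genes past the unadjusted p and the fold change minimum numbered 549 higher and 383 lower in INS + VD vs. VD, 847 and 195 with equal sums and 425 and 534 with median centring. In VD vs. CK these were 588 and 738, 377 and 1039, and 864 and 595. The cause was not tested. Correlations of same-numbered libraries after removing group means ran from −0.317 to 0.383, so the numbers were not taken as pairing. With the replicate block, 0 collagen genes passed the adjusted p and 1 stayed higher in INS + VD vs. VD, and 1 higher and 1 lower in VD vs. CK. The ratio of the type I chains was not run. FPKM carry no counts, so the depth behind low genes is unknown.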

Other observations

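Col28a1, a beaded-filament-like collagen that was too low to be tested, had 0.118, 0.0637 and 0.0331 FPKM in INS + VD, 0.322 and 5.12 FPKM in VD 2 and VD 3 and 0.0810, 0.0667 and 0.0684 FPKM in CK, and was listed at 0 in VD 1. A single library, VD 3, held nearly all of its signal. VD 3 was also the highest library for Col1a1, Col3a1, Col5a2, Col11a1 and Col12a1, and it exceeded every CK library for 15 of the 28 tested collagen genes (53.6%), against 35.9% of all genes tested. VD 1 did so for 6 of 28 (21.4%), against 35%, and VD 2 for 3 of 28 (10.7%), against 27.8%. Below every CK library lay VD 1 for 15 of 28 (53.6%), against 44.4%, and VD 2 for 12 of 28 (42.9%), against 35.7%. For VD 3 this was 2 of 28 (7.14%), against 18%. Col24a1, a fibrillar collagen also left untested, had 0.0426, 0.0269 and 0.0979 FPKM in INS + VD, 0.715, 0.0136 and 0.551 FPKM in VD, against 0.178, 0.113 and 0.0433 FPKM in CK, with VD 1 and VD 3 above all others. These genes were picked after their values were seen.

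Col26a1 and Col4a3, also untested, lay lower in most ligated libraries. Col26a1 had 0.175, 0.0832 and 0.0864 FPKM in INS + VD, 0.0210 and 0.327 FPKM in VD 2 and VD 3 and 0.719, 0.587 and 0.201 FPKM in CK, and was listed at 0 in VD 1. Col4a3, the partner of Col4a4, had 0.441, 0.336 and 0.281 FPKM in INS + VD, 0.306 and 0.103 FPKM in VD 2 and VD 3 and 0.633, 0.814 and 0.466 FPKM in CK, and was listed at 0 in VD 1. Every CK library lay above every INS + VD and VD library for Col4a3, with CK 3 at 0.466 FPKM close to INS + VD 1 at 0.441. Of all tested genes, 5.27% had every INS + VD library below every CK library, and 8.27% had every VD library below every CK library. The direction for Col4a3 was that of the 5 tested type IV genes. Col26a1 and Col4a3 were singled out after their values were seen. The depth behind values this low is unknown.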
